A study of Mus musculus with 12 samples.

Results

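The nuclear genes for mitochondrial ribosomal proteins were followed through the transcriptomes of mouse primary hepatocytes. They were taken as every gene whose symbol begins with Mrpl or Mrps and a digit, which gave 78 of the 16728 genes listed. All 78 passed the filter on low counts and stood among the 12275 genes tested. By subunit, 51 encode proteins of the large mitoribosomal subunit and 26 encode proteins of the small one. The remaining gene, Mrps36, carries the family name, but its protein is now known as a part of the alpha-ketoglutarate dehydrogenase complex.

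The mitoribosome translates the few proteins that the mitochondrial genome encodes, all of them core subunits of the oxidative phosphorylation complexes. Its RNAs are made inside the organelle, whereas its proteins are encoded in the nucleus, made on cytosolic ribosomes and imported. In hepatocytes, which are rich in mitochondria, oxidative phosphorylation therefore depends on both sources. Many of these proteins have bacterial relatives, and others are found in mitoribosomes alone.

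The study asked how iron overload acts on primary hepatocytes with and without Fxr, the bile acid receptor encoded by Nr1h4. RNA was sequenced in 12 libraries, 3 in each of 4 groups, all labelled with the strain C57BL/6 and grown with serum. The groups were Fxr-/- (KO) cells given 100 µM FAC for 24 h, KO cells given 100 µM AC for 24 h, wild-type (WT) cells given FAC and WT cells given AC at the same dose and time. The labels do not spell out the abbreviations FAC and AC. They number the AC libraries 1 to 3 and the FAC libraries 4 to 6, and leave unsaid whether libraries of a group came from separate animals or cultures. Every p-value therefore measures only the spread between these samples, which may be technical. The labels do not say how the Fxr-/- allele was made.

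The shallowest library held 16464494 and the deepest 18335700 estimated reads, with 14243 to 14481 genes detected by 1 read or more. The 78 genes together held 55804 to 66017 estimated reads per library, and single genes held 234 (the lowest library of Mrps36) to 3152 (the highest of Mrpl38). Nr1h4 averaged fewer reads in KO than in WT cells, by -0.75 ± 0.16 (SE) under FAC and -0.81 ± 0.14 under AC on the log2 scale (edgeR adjusted p = 0.00157 and 0.000535). Nr1h4 was also lower with FAC than with AC, by -0.88 ± 0.16 in KO and -0.95 ± 0.14 in WT cells (edgeR adjusted p = 0.00124 and 0.00063), and its levels in KO AC (6.97 to 9.35 CPM) overlapped those in WT FAC libraries (6.95 to 7.69 CPM). These counts cover the whole gene and do not test the deletion. Hepatocyte markers (8 genes) summed to 21546 to 23064 TPM in KO FAC, 19136 to 19765 in KO AC, 24655 to 26161 in WT FAC and 19393 to 19996 in WT AC libraries. Alb, which made up 65.3% to 86.2% of these sums, was lower in KO than in WT cells under both treatments, whereas 6 of the 8 were higher. The 6 listed macrophage markers summed to 861 to 974, 703 to 893, 856 to 928 and 521 to 585 TPM in the same order of groups, with Clec4f at 0 in both KO groups. Cd68 alone held at least 99.3% of this sum in every group and was higher in KO and with FAC, whereas Adgre1 and Marco, at or below 2.12 TPM, were lower in KO under both treatments and lower with FAC in WT cells. The median log2 fold change of the 4 tested macrophage markers was -2.42 for KO against WT under FAC, -2.36 under AC, -0.75 for FAC in KO and -0.70 for FAC in WT cells. The 5 cholangiocyte markers summed to 114 to 139, 81.2 to 90.6, 370 to 424 and 458 to 481 TPM. Spp1, which held 65.5% to 95.5% of this sum, was lower in KO, but the median of the 4 tested cholangiocyte markers was 0.70 under FAC, where Krt19 and Sox9 were higher, and 0.44 under AC. Endothelial, stellate and leukocyte markers stayed at or below 10.6 TPM in sum. In bulk RNA, fewer cells of a type and less RNA per cell cannot be told apart, and the part of these cell type differences in the results below was not tested.

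The promoters of 4 genes are shown because their genes carry the results described below, and because 3 of them hold a motif of a factor known to act on nuclear genes for mitochondria. RefSeq promoters on GRCm38.p6, each with 250 bases before the start site and 50 after it, were found for 69 of the 78 genes. They were searched on both strands for CCGGAAGT, a site of ETS factors such as Gabpa, AAGATGGCG, a site of Yy1, and the palindromic core site of Nrf1, whose letters are the capitals in the Mrpl32 promoter. Capitals mark the match, and bases run 5′ to 3′ along the gene's strand. Mrps22 holds the ETS letters (chr9:98601630-98601929, minus strand), Mrpl32 the Nrf1 letters (chr13:14612988-14613287, minus strand) and Mrps18a the Yy1 letters (chr17:46110754-46111053, plus strand). Mrpl14 holds none of the motifs, and 78% of its promoter is G or C (chr17:45686099-45686398, plus strand).
Mrps22: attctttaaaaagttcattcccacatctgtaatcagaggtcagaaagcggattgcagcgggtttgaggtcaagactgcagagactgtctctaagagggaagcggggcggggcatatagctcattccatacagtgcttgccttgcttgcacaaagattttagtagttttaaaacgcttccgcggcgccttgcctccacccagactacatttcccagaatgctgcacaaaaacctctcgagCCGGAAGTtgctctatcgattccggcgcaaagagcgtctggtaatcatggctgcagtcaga
Mrpl32: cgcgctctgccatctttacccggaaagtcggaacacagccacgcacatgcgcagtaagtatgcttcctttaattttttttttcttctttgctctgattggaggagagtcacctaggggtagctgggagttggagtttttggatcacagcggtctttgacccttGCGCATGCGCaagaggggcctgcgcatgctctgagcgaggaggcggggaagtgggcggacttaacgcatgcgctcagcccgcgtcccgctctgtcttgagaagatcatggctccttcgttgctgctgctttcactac
Mrps18a: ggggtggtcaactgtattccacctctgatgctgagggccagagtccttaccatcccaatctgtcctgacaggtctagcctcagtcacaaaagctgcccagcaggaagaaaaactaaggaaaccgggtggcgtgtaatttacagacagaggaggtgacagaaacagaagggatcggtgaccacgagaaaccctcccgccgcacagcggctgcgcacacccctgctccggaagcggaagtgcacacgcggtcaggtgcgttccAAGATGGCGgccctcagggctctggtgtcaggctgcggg
Mrpl14: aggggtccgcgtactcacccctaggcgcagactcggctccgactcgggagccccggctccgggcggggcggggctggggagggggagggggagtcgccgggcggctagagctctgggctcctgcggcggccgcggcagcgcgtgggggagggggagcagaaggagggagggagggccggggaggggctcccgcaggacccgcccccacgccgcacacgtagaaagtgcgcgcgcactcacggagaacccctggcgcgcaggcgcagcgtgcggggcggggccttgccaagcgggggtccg

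The ETS letters stood in 12 of the 69 promoters (17.4%), against 9.30% of the promoters of all tested genes and 4.31% of all promoters. The Yy1 letters stood in 8 (11.6%), against 3.63% and 1.64%, and the Nrf1 letters in 3 (4.35%), against 2.32% and 1.07%. No motif was found in 47 of the 69 promoters. A match describes the letters only and is not evidence of binding. In the GENCODE M21 annotation, 18 of the 78 genes (23.1%) had a protein-coding neighbour that starts within 1000 bases on the opposite strand and runs the other way, against 10.4% of the tested protein-coding genes. Mrps12, for example, starts 172 bases from Sars2, the mitochondrial seryl-tRNA synthetase, and Mrpl32 starts 75 bases from Psma2, a proteasome subunit.

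Expression of the family was high. Its median level was 59.4 TPM (mean over the 12 libraries), against 12.2 TPM for all tested genes, and 77 of the 78 genes stood above that value. The highest gene, Mrpl52 of the large subunit, averaged 249.9 ± 14.5 TPM in KO FAC, 250.6 ± 21.1 in KO AC, 330.9 ± 14.0 in WT FAC and 330.2 ± 16.6 TPM in WT AC cells (SD, n = 3 each). The lowest, Mrps25 of the small subunit, averaged 7.65 ± 0.59, 8.15 ± 0.41, 10.2 ± 0.89 and 10.8 ± 0.30 TPM in those groups. Mean levels thus spanned 31.5-fold per transcript length, although the proteins are incorporated into one particle.

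After Mrpl52 the highest mean levels were those of Mrpl33 (274 TPM), Mrpl30 (241), Mrps21 (203), Mrpl20 (189) and Mrps18b (182). Above Mrps25, the lowest were Mrpl19 (12.6 TPM), Mrpl41 (14.3) and Mrpl17 (19.4). Median levels were 63.4 TPM over the large subunit and 53.8 TPM over the small subunit. The median coefficient of variation between replicates was 6.98% for the family and 9.27% for all tested genes, whose median level was lower. It is taken gene by gene and does not measure shifts of the whole family between replicates, which are described next.

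**Figure D1:**
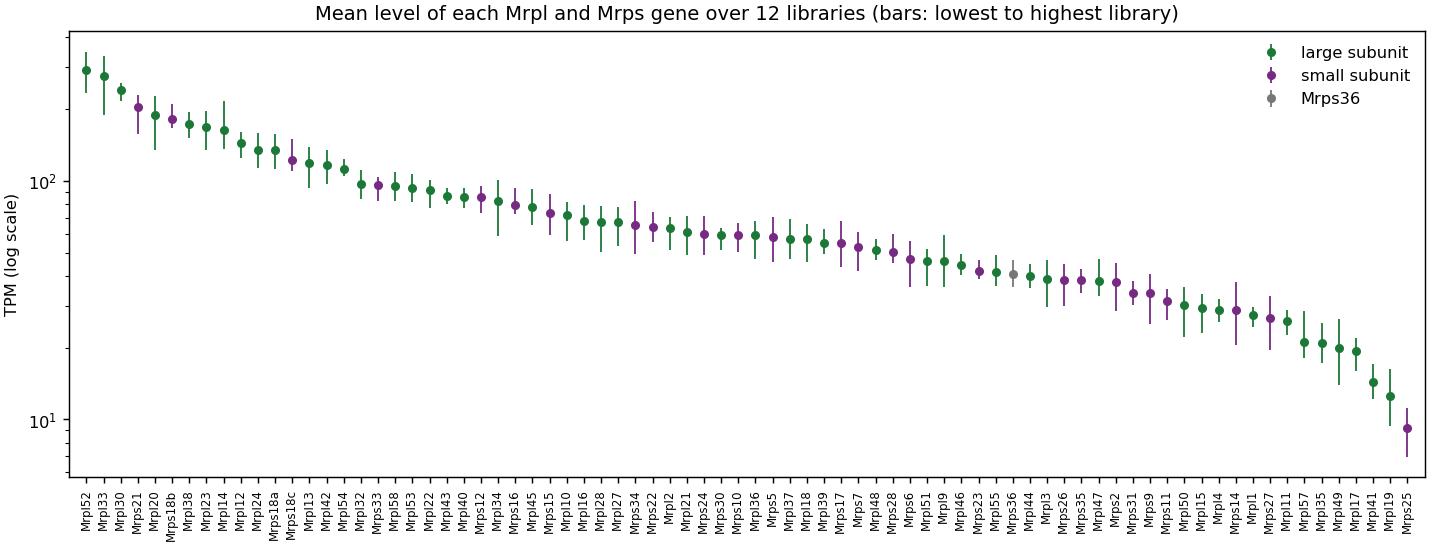
Level of each of the 78 genes in TPM on a log axis, ordered from high to low and coloured by subunit. Points are means over 12 libraries and bars run from the lowest to the highest library, between 290 TPM for Mrpl52 and 9.21 TPM for Mrps25.

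Before the comparisons, each library was described by the median, over the 78 genes, of the log2 difference between its TMM-scaled counts per 1000000 (CPM) and the gene's own mean over all libraries. The medians were 0.078, 0.095 and 0.062 in the KO FAC libraries, against 0.067, -0.085 and -0.170 in the KO AC libraries. They were 0.057, 0.018 and 0.051 in WT FAC, against -0.134, 0.015 and -0.021 in WT AC libraries. Library KO AC 1 stood with the FAC libraries, with 55 of 78 genes above their own mean, whereas KO AC 2 and KO AC 3 had 24 and 10. WT AC 1 had 11 genes above their mean, and WT AC 2 and WT AC 3 had 46 and 32. WT AC 2, at 0.015, lay beside WT FAC 5, at 0.018. Calls that rest on these libraries are given with and without them. Family medians of fold change, counts above 0 and counts without overlap are given on all libraries only. How far they rest on WT AC 1 or on the KO AC libraries was not tested.

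**Figure D2:**
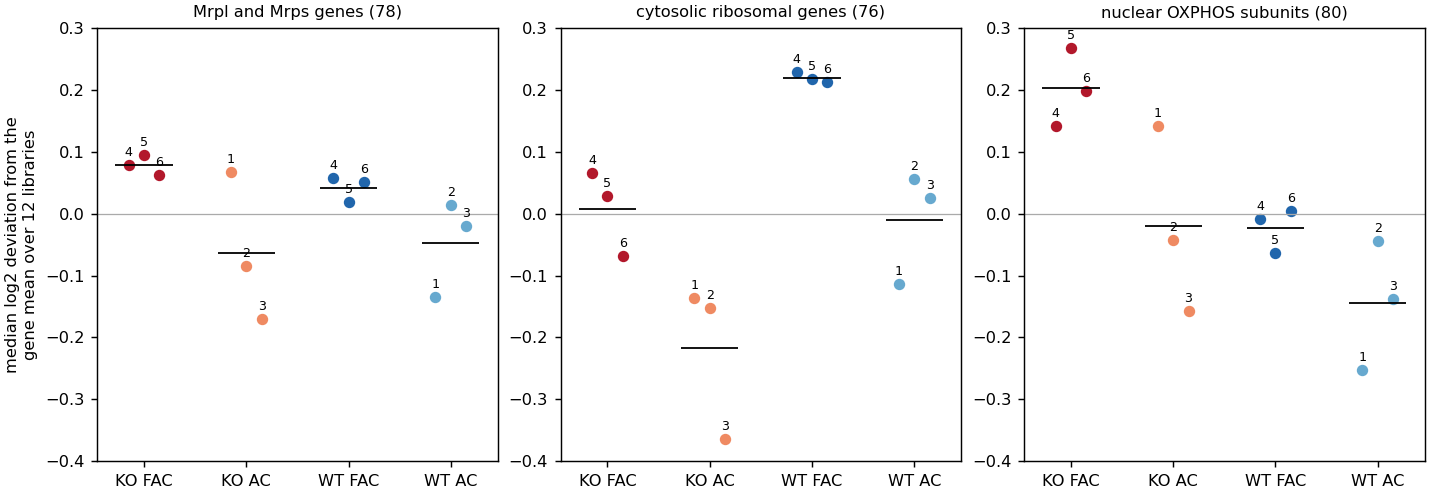
Median log2 deviation of each library from the gene mean over 12 libraries, for the 78 Mrpl and Mrps genes, 76 cytosolic ribosomal genes and 80 nuclear oxidative phosphorylation subunits. Points are libraries with their numbers and lines are group means. In the first panel KO AC 1 lies at 0.067, beside the FAC libraries, and KO AC 3 at -0.170.

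Summed over the 78 genes, the level was 5616 ± 103 TPM in KO FAC, 5824 ± 267 in KO AC, 6181 ± 79.3 in WT FAC and 6255 ± 90.1 TPM in WT AC cells (SD, n = 3 each). FAC and AC libraries overlapped in both genotypes on this scale, with log2 ratios of -0.05 in KO and -0.02 in WT cells. KO libraries lay below WT libraries under FAC, by a log2 ratio of -0.14, and under AC, by -0.10. The direction depends on the scale. In CPM the sums were 3779 ± 82.1, 3471 ± 233, 3645 ± 58.4 and 3431 ± 177 in the same groups, so that KO was higher than WT by 0.05 under FAC and 0.02 under AC on the log2 scale, with overlapping libraries. FAC was higher than AC in CPM, by 0.12 in KO cells, where libraries overlapped, and by 0.09 in WT cells, where they did not (two-sided exact permutation p = 0.1, the smallest that 3 against 3 libraries allow). The ratio of the small-subunit sum to the large-subunit sum was 0.394 ± 0.010 in KO FAC, 0.395 ± 0.0031 in KO AC, 0.396 ± 0.0037 in WT FAC and 0.389 ± 0.0049 in WT AC cells. These ratios overlapped between the groups of every comparison.

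The first comparison, FAC against AC in WT cells, gave small increases in 6 genes. The genes were Mrpl47, Mrps18c, Mrpl32, Mrpl35, Mrps22 and Mrpl24, with log2 fold changes between 0.24 and 0.43. The 6 called genes are 7.69% of the family, below the 17.2% of all tested genes called in this comparison (8.70% higher and 8.55% lower). A gene was called where edgeR's quasi-likelihood test gave a Benjamini-Hochberg adjusted p under 0.05 over all tested genes. The direction over the family was less even than over all genes, with 62 of 78 fold changes above 0, against 49.7% of all tested genes. The median log2 fold change was 0.094, against -0.0024 for all tested genes. At an unadjusted p under 0.05 there were 15 of the 78 genes, all of them higher, against 3838 of the 12275 tested genes in either direction. DESeq2 called 9 of the 78, all of them higher, and its share over all tested genes is not given. Every FAC library lay above every AC library for 26 genes, against 21.6% of all tested genes, and below for 2, against 21.6%.

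Mrpl47, the large-subunit relative of bacterial L29, had 23.8, 23.1 and 21.3 CPM in WT FAC libraries, against 17.4, 17.2 and 16.1 CPM in WT AC libraries. The groups did not overlap, and the log2 fold change was 0.43 ± 0.09 (SE, edgeR adjusted p = 0.00492). It was the only one of the 6 that stayed called under every alternative tried. Its exons overlap Actl6a and Ndufb5 on the opposite strand, and because it is not known whether counting used strand, reads of these genes cannot be told apart.

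Mrps18c, the small-subunit relative of bacterial S18, had 33.0, 34.3 and 37.5 CPM in WT FAC against 24.0, 27.0 and 28.2 CPM in WT AC libraries. Its log2 fold change was 0.40 ± 0.10 (edgeR adjusted p = 0.011). The call was lost without WT AC 1 (adjusted p = 0.0507) or without WT FAC 6 (0.0523). Mrpl32, whose precursor is cleaved by the m-AAA protease before it enters the large subunit, had 42.3, 45.8 and 40.8 CPM in WT FAC against 31.7, 35.1 and 36.9 CPM in WT AC libraries. All FAC libraries were above all AC libraries, with a log2 fold change of 0.31 ± 0.09 (edgeR adjusted p = 0.0278). The call was lost without WT FAC 4 (0.0657), WT FAC 5 (0.118), WT AC 1 (0.106) or WT AC 2 (0.0614).

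Mrpl35 and Mrpl24, both relatives of bacterial large-subunit proteins, rose by 0.30 ± 0.09 and 0.24 ± 0.07 on the log2 scale (edgeR adjusted p = 0.031 and 0.0313). Each of these calls was lost when any 1 of the libraries WT FAC 4, WT FAC 5, WT FAC 6, WT AC 1 or WT AC 3 was left out, with adjusted p between 0.0689 and 0.126 for Mrpl35 and between 0.0607 and 0.126 for Mrpl24. Leaving out single libraries left 2 to 4 of the 78 genes called higher, with 2 of them without WT FAC 4, WT FAC 5 or WT AC 1 and 3 without WT FAC 6 or WT AC 3. In a fit of the WT groups alone 14 were called higher, in a limma fit on log2(TPM + 1) 2 were higher and 2 lower, and with library totals 3 were higher. Hepatocyte markers moved in the same comparison, 4 of 8 higher and 1 lower. Of 4 macrophage markers 1 was higher and 2 lower, and of 5 endothelial markers 1 was higher. The part of these markers' cell types in the calls was not tested.

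In KO cells FAC gave 14 higher genes and 2 lower ones. The largest increases were those of Mrpl14, Mrps26, Mrpl57, Mrpl2, Mrpl58 and Mrps28, between 0.38 and 0.59 on the log2 scale. Mrps22, Mrps16, Mrps30, Mrpl38, Mrpl1, Mrpl40, Mrpl30 and Mrpl54 rose by 0.25 to 0.36, and Mrpl33 and Mrps2 fell. The 16 called genes are 20.5% of the family, below the 29.6% of all tested genes called here (15.0% higher and 14.6% lower). Fold changes lay above 0 for 63 of 78 genes, against 49.7% of all tested genes, with a median of 0.13, against -0.0020 over all tested genes. The FAC libraries were entirely above the AC libraries for 24 genes, against 19.7% of all tested genes, and entirely below for 1, against 19.1%.

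These counts rest on single libraries and on the scaling. Shares of all tested genes called in the same alternative fits are not given, here or for the other comparisons. A change in the family's counts can therefore not be told apart from a change over all genes. Without KO AC 1, which stood beside the FAC libraries, 28 of the 78 genes were higher and 1, Mrpl9, was lower. Without KO AC 3 there were 7 higher and 1 lower (Mrpl33), without KO AC 2 there were 9 higher, and without KO FAC 5 there were 8. The decreases of both Mrpl33 and Mrps2 were lost without KO FAC 5, KO FAC 6, KO AC 1 or KO AC 2. In a limma fit on log2(TPM + 1), which shifted the median of all tested genes by -0.15, the split was 5 higher and 14 lower. It was 9 and 6 on log2(FPKM + 1), 8 and 5 with library totals and 24 higher with upper-quartile scaling. On the TPM scale the family median was -0.05, which is still above that of all tested genes.

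Mrpl14, a large-subunit protein at the interface of the subunits that binds the anti-association factor Malsu1, had 71.6, 77.8 and 77.5 CPM in KO FAC libraries, against 56.2, 47.7 and 46.4 CPM in KO AC libraries. This was the largest increase of the family with FAC in KO cells, with a log2 change of 0.59 ± 0.09 (SE; adjusted p by edgeR = 0.000452) and no overlap. Its exons overlap Tmem63b on the opposite strand, so that reads of the neighbours cannot be told apart.

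Mrps26, a small-subunit protein without a bacterial relative, had 23.7, 26.6 and 24.3 CPM in KO FAC against 19.6, 17.2 and 17.3 CPM in KO AC libraries. The log2 fold change was 0.47 ± 0.10 (edgeR adjusted p = 0.00284), with all FAC libraries above all AC libraries. Mrpl2, a conserved protein near the peptidyl transferase centre, had 42.0, 49.1 and 48.3 CPM in KO FAC against 37.7, 35.3 and 30.3 CPM in KO AC libraries. It rose by 0.43 ± 0.09 (edgeR adjusted p = 0.00425).

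Mrpl58, a peptidyl-tRNA hydrolase built into the large subunit that can rescue stalled mitoribosomes, had 48.9, 58.7 and 52.7 CPM in KO FAC against 41.7, 42.2 and 38.0 CPM in KO AC libraries. The groups did not overlap, and the log2 fold change was 0.39 ± 0.09 (edgeR adjusted p = 0.00478). Mrps28, a small-subunit protein, had 24.6, 27.9 and 24.6 CPM in KO FAC against 20.5, 20.6 and 18.2 CPM in KO AC libraries, a log2 fold change of 0.38 ± 0.09 (edgeR adjusted p = 0.00822). The calls of Mrpl14, Mrps26, Mrpl2, Mrpl58 and Mrps28 held under every alternative tried. That of Mrpl57, a large-subunit protein without a bacterial relative (log2 fold change 0.46 ± 0.12), was lost without KO FAC 5 (adjusted p = 0.0555) or KO AC 3 (0.0538).

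The 2 decreases were less stable. Mrpl33, a relative of bacterial L33, had 58.2, 51.2 and 47.4 CPM in KO FAC against 77.3, 67.4 and 55.8 CPM in KO AC libraries. The groups overlapped, and the log2 fold change was -0.35 ± 0.11 (edgeR adjusted p = 0.0287). Leaving out KO FAC 5 (0.0839), KO FAC 6 (0.0959), KO AC 1 (0.0977) or KO AC 2 (0.0681) ended the call. Mrps2, a relative of bacterial S2, had 47.0, 43.6 and 43.9 CPM in KO FAC against 54.4, 52.0 and 53.5 CPM in KO AC libraries. Its log2 fold change of -0.25 ± 0.09 (edgeR adjusted p = 0.0442) did not pass when any 1 of the 6 KO libraries was left out, with adjusted p between 0.0525 and 0.126. Of the hepatocyte markers, 6 of 8 were higher with FAC in KO cells. So were 2 of 4 cholangiocyte and 1 of 4 macrophage markers, and 1 of 3 stellate and fibroblast markers was lower. The part of these differences in the calls with FAC was not tested.

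Mrps22, a small-subunit protein whose loss in patients lowers mitochondrial translation, was called higher with FAC in both genotypes (1 of the 14 higher genes in KO and 1 of the 6 in WT cells). No other gene of the family was in this fit, but DESeq2 added Mrpl1 and Mrpl30, upper-quartile scaling these and Mrpl47, and the compared groups alone Mrpl58, while library totals and log2(TPM + 1) left none. Of all tested genes, 585 were called higher in both genotypes, which is 31.8% of those higher in KO and 54.8% of those higher in WT cells. It had 58.5, 57.2 and 52.3 CPM in KO FAC against 48.0, 41.5 and 41.5 CPM in KO AC libraries, and 54.8, 49.5 and 48.9 CPM in WT FAC against 43.3, 40.5 and 41.2 CPM in WT AC libraries. Neither pair of groups overlapped. The log2 fold changes were 0.36 ± 0.08 in KO and 0.29 ± 0.08 in WT cells (edgeR adjusted p = 0.00539 and 0.0242). The KO call held without each KO library in turn, with adjusted p between 0.00167 (without KO AC 1, log2 fold change 0.43) and 0.0269 (without KO AC 3), and was lost on log2(TPM + 1) (0.0908). The WT call was lost without WT FAC 4 (0.109), WT FAC 5 (0.0523), WT AC 2 (0.0768) or WT AC 3 (0.081), with library totals (0.0505) and on log2(TPM + 1) (0.134).

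The difference of the FAC effects, KO minus WT, was tested directly. It was called for none of the 78 genes, against 3.15% of all tested genes (1.87% higher and 1.28% lower). DESeq2 also called none, and 8 of the 78 genes had an unadjusted p under 0.05, against 2346 of the 12275 tested genes. The smallest p was that of Mrpl14, with a difference of 0.43 ± 0.13 on the log2 scale (edgeR adjusted p = 0.0926), followed by Mrps26 with 0.40 ± 0.13 (0.119), Mrpl38 with 0.35 ± 0.13 (0.159), Mrpl2 with 0.35 ± 0.13 (0.166) and Mrps2 with -0.30 ± 0.12 (0.198). The median difference over the family was 0.036, against -0.0067 over all tested genes. The differing numbers of calls in KO and WT cells thus do not show different FAC effects. Without KO AC 1 the difference of Mrpl14 was called (0.52 ± 0.12, adjusted p = 0.0282). With KO FAC 4 left out as well it was called higher for 7 genes, and with KO FAC 6 left out instead for 2.

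**Figure D3:**
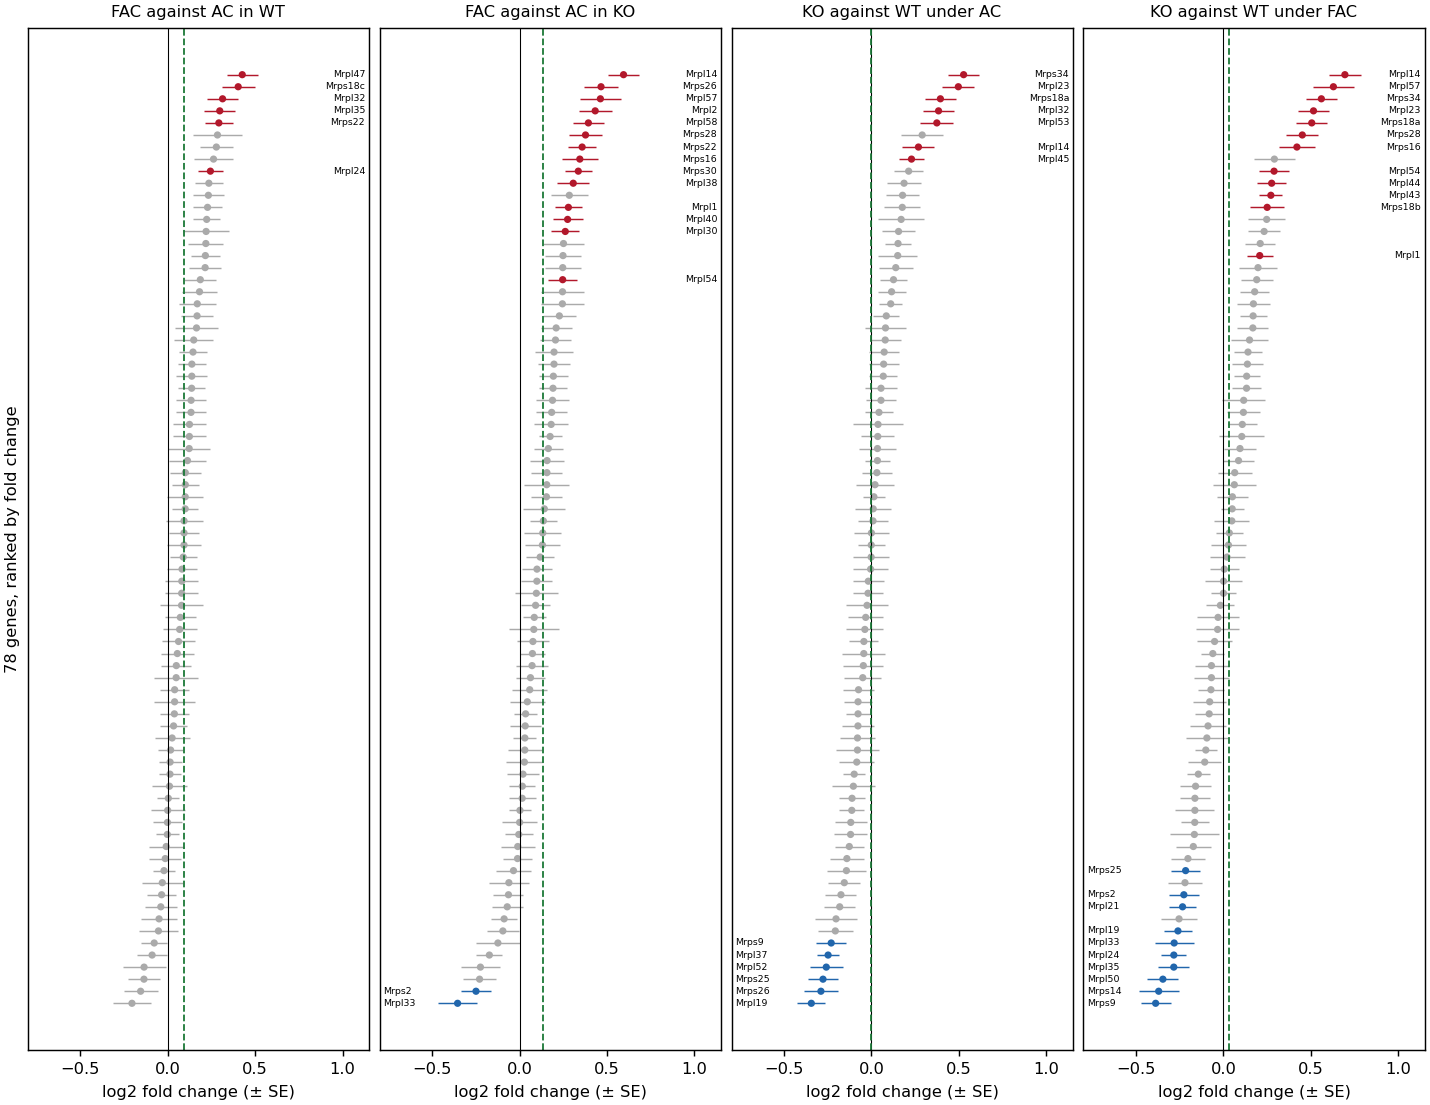
Log2 fold changes (± SE, edgeR) of the 78 genes, ranked within each comparison from the highest at the top to the lowest. Red and blue genes were called higher and lower at an adjusted p under 0.05, grey genes were not called, and the dashed line is the family median. All points lie between -0.39 and 0.69, and the medians are 0.094 and 0.13 for FAC against AC in WT and KO cells and -0.00085 and 0.031 for KO against WT under AC and FAC.

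Loss of Fxr was compared under FAC and under AC. Under FAC, 12 genes were higher and 10 lower in KO than in WT cells. These 22 genes are 28.2% of the family, below the 49.5% of all tested genes called in this comparison (24.6% higher and 24.9% lower). The family median was 0.031, against -0.011 for all tested genes, and 44 of 78 fold changes were above 0, against 49.0%. Under AC, 7 genes were higher and 6 lower, which is 16.7% of the family, again below the 42.9% of all tested genes (21.7% higher and 21.2% lower). The median was -0.00085, against -0.0033 for all tested genes, and 38 of 78 fold changes were above 0, against 49.6%. KO libraries were entirely above WT libraries for 25 genes and below for 16 under FAC, against 28.5% and 30.6% of all tested genes, and for 11 and 9 genes under AC, against 26.5% and 26.4%.

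The calls under the 2 treatments come from separate libraries. Higher in KO under both were Mrpl14, Mrpl23, Mrps18a and Mrps34, which are 4 of the 12 higher genes under FAC and 4 of the 7 under AC. Lower under both were Mrpl19, Mrps25 and Mrps9, which are 3 of the 10 lower genes under FAC and 3 of the 6 under AC. Of all tested genes, 1976 were higher under both, which is 65.5% of those higher under FAC and 74.1% of those higher under AC, and 1876 were lower under both, 61.4% and 72.2%. All 4 shares in the family lay below these, at 33.3% and 57.1% for the higher genes. No gene of the family was called in opposite directions.

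Mrpl14 had the largest fold change of the family in any comparison. It had 71.6, 77.8 and 77.5 CPM in KO FAC libraries, against 44.5, 43.9 and 51.8 CPM in WT FAC libraries, a log2 change of 0.69 ± 0.09 (SE; adjusted p by edgeR = 3.58e-05). Under AC it had 56.2, 47.7 and 46.4 CPM in KO against 40.1, 44.5 and 40.2 CPM in WT libraries. The groups did not overlap under either treatment. The fold change under AC was 0.27 ± 0.09 (adjusted p = 0.0305) and lost its call without KO AC 1 (0.123), WT AC 1 (0.0927) or WT AC 3 (0.0962).

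Mrps34, a small-subunit protein needed for the stability of that subunit, had 39.9, 40.9 and 44.4 CPM in KO FAC against 29.1, 25.7 and 30.2 CPM in WT FAC libraries. Under AC it had 44.5, 41.7 and 37.3 CPM in KO against 26.8, 29.6 and 29.3 CPM in WT libraries. Every KO library was above every WT library, with log2 fold changes of 0.56 ± 0.09 under FAC and 0.53 ± 0.09 under AC (edgeR adjusted p = 0.000201 and 0.000438). Its exons overlap Nme3 on the same strand and Mapk8ip3 on the opposite strand.

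Mrpl23, at the exit of the polypeptide tunnel of the large subunit, had 67.6, 69.7 and 62.6 CPM in KO FAC against 44.5, 48.0 and 47.3 CPM in WT FAC libraries. Under AC the values were 61.7, 59.9 and 51.7 CPM in KO against 35.9, 43.7 and 43.2 CPM in WT libraries. It was higher in every KO library, by 0.51 ± 0.09 under FAC and 0.50 ± 0.09 under AC on the log2 scale (edgeR adjusted p = 0.000431 and 0.000791). RefSeq lists a pseudogene of Mrpl23, so its count is less certain.

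Mrps18a, which despite its symbol sits in the large subunit, had 82.7, 90.6 and 78.8 CPM in KO FAC against 59.3, 59.3 and 59.0 CPM in WT FAC libraries. Under AC it had 77.0, 75.4 and 69.4 CPM in KO against 48.6, 62.5 and 57.7 CPM in WT libraries. No KO library overlapped a WT library, with log2 fold changes of 0.50 ± 0.09 and 0.39 ± 0.09 (edgeR adjusted p = 0.000381 and 0.00295). Apart from that of Mrpl14 under AC, the calls of these 4 genes held under every alternative.

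Mrpl57 and Mrps28 were called higher under FAC alone. Mrpl57 had 39.3, 49.9 and 42.7 CPM in KO FAC against 27.3, 28.4 and 29.6 CPM in WT FAC libraries, a log2 fold change of 0.63 ± 0.12 (edgeR adjusted p = 0.000668). Mrps28 had 24.6, 27.9 and 24.6 CPM in KO FAC against 19.6, 18.7 and 18.1 CPM in WT FAC libraries, a log2 fold change of 0.45 ± 0.09 (edgeR adjusted p = 0.00126). Neither gene's groups overlapped. That they were not called under AC does not show a difference between treatments, since the difference was not called for either. Mrps16, Mrpl54, Mrpl44, Mrpl43, Mrps18b and Mrpl1 were also higher under FAC, by 0.21 to 0.42. Mrpl43 shares exonic sequence on opposite strands with Twnk, the mitochondrial helicase, which fell in the same comparison by 0.69 while Mrpl43 rose by 0.27 ± 0.07 (edgeR adjusted p = 0.00371), a pair singled out after the values were seen.

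Mrpl32 and Mrpl53, a large-subunit protein without a bacterial relative, were called higher in KO under AC. Mrpl32 had 44.6, 48.8 and 41.8 CPM in KO AC against 31.7, 35.1 and 36.9 CPM in WT AC libraries, a log2 fold change of 0.38 ± 0.09 (edgeR adjusted p = 0.0039). Mrpl53 had 36.7, 34.1 and 29.4 CPM in KO AC against 23.6, 27.2 and 26.6 CPM in WT AC libraries, a log2 fold change of 0.37 ± 0.09 (edgeR adjusted p = 0.00616). Both were above in every KO library and held under every alternative. The exons of Mrpl53 overlap Gm42688 on the same strand and Ccdc142os on the opposite strand. Mrpl45, which ties the mitoribosome to the inner membrane at the tunnel exit, rose by 0.23 ± 0.07 (edgeR adjusted p = 0.024).

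Among the decreases, Mrps9, a conserved protein of the small-subunit head, had 25.7, 25.9 and 26.8 CPM in KO FAC against 34.5, 35.6 and 32.3 CPM in WT FAC libraries. Under AC it had 25.8, 30.6 and 25.4 CPM in KO against 30.8, 33.1 and 32.2 CPM in WT libraries. It was lower in every KO library, by a log2 fold change of -0.39 ± 0.09 under FAC (edgeR adjusted p = 0.00203) and of -0.23 ± 0.08 under AC (adjusted p = 0.0421). The call under AC was lost when any 1 library of the comparison other than KO AC 2 was left out, with adjusted p between 0.0539 and 0.138.

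Mrpl19, a relative of bacterial L19, had 44.0, 36.6 and 37.5 CPM in KO FAC against 48.1, 49.1 and 44.2 CPM in WT FAC libraries. Under AC it had 36.1, 36.3 and 36.4 CPM in KO against 47.6, 45.0 and 45.4 CPM in WT libraries. KO FAC 4 came close to the lowest WT FAC library, yet no KO library reached a WT library under either treatment. The log2 fold changes were -0.26 ± 0.08 under FAC and -0.34 ± 0.08 under AC (edgeR adjusted p = 0.0155 and 0.00382). Mrps25, the lowest gene by level, fell by 0.22 ± 0.08 and 0.28 ± 0.08 on the log2 scale, and its call under AC was lost without KO AC 3 (0.0613) or WT AC 3 (0.0654). Mrpl19 and Mrps25 overlap Gcfc2 and Nr2c2 on the opposite strand.

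Further decreases under FAC were those of Mrps14 (-0.37 ± 0.11) and Mrpl50 (-0.35 ± 0.09), followed by Mrpl35 and Mrpl24 (-0.28 each), Mrpl33, Mrpl21 and Mrps2. Mrpl50 had 39.1, 34.5 and 35.6 CPM in KO FAC against 45.3, 47.1 and 46.4 CPM in WT FAC libraries, without overlap. The call of Mrps14 was lost without KO FAC 4 (adjusted p = 0.0604) or WT FAC 6 (0.0607), and that of Mrpl35 without WT FAC 4 (0.056). Mrpl33 was called at an adjusted p of 0.0494 and was lost without any 1 of WT FAC 4, WT FAC 5, WT FAC 6, KO FAC 5 or KO FAC 6 (0.0663 to 0.16). Under AC the further decreases were those of Mrps26 (-0.29 ± 0.10), Mrpl52 (-0.26 ± 0.10) and Mrpl37 (-0.25 ± 0.07). Mrpl37 held under every alternative, Mrps26 was lost without WT AC 2 (0.11), KO AC 2 (0.0866) or KO AC 3 (0.0735), and Mrpl52, whose libraries overlapped, without WT AC 2 (0.179), WT AC 3 (0.0668), KO AC 2 (0.105) or KO AC 3 (0.167).

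**Figure D4:**
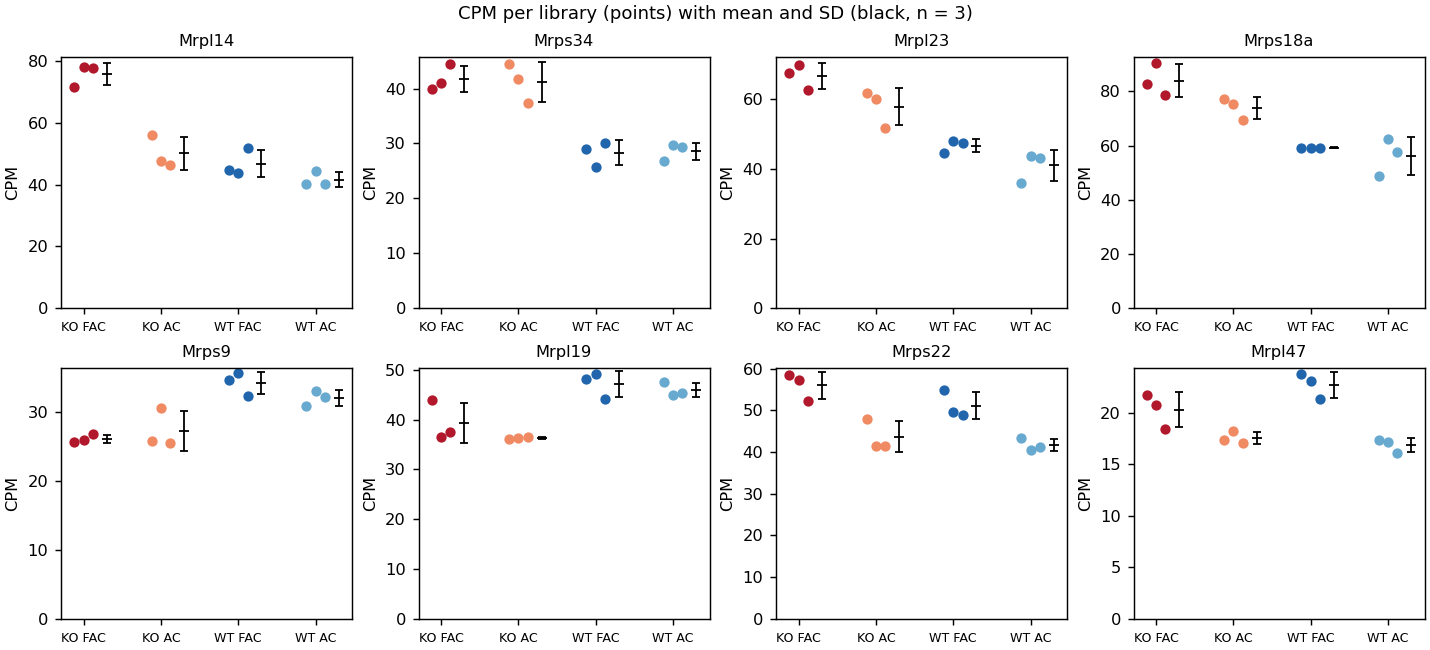
CPM of 8 genes in each library, with the mean and SD of each group of 3 in black. Mrpl14, Mrps34, Mrpl23 and Mrps18a are higher in every KO library than in any WT library of the same treatment, Mrps9 and Mrpl19 are lower, and Mrps22 and Mrpl47 are higher with FAC than with AC in WT cells.

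The number of decreases depends on the scaling. On log2(TPM + 1) the split of KO against WT was 7 higher and 35 lower under FAC and 5 and 23 under AC, where the median of all tested genes was itself shifted by -0.17 and -0.11. It was 7 and 26 under FAC and 5 and 15 under AC on log2(FPKM + 1), and 7 and 24, and 5 and 14, with library totals. With upper-quartile scaling it was 16 and 7 under FAC and 7 and 6 under AC. Leaving out single libraries changed the decreases to 5 without WT FAC 4 or KO FAC 6 and 6 without KO FAC 5, and under AC to 2 without KO AC 3 and 3 without WT AC 2 or WT AC 3. In the same comparisons 6 of 8 hepatocyte markers were higher and 1 lower in KO under either treatment, and the 3 tested stellate and fibroblast markers were lower under both, with summed levels of 0.23 to 0.30 TPM in KO FAC against 2.51 to 3.15 TPM in WT FAC libraries and 0.40 to 0.68 TPM in KO AC against 3.31 to 4.48 TPM in WT AC libraries. Of 4 macrophage markers 2 were lower and 1 higher under either treatment, and of 4 cholangiocyte markers 2 were higher and 1 lower under FAC and 1 was lower under AC. Of 5 tested endothelial markers, all at low levels, 3 were lower and 1 higher under either treatment. The part of these differences in the calls was not tested.

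Across the 5 comparisons 37 of the 78 genes were called at least once and 41 never. None changed by as much as 2-fold, whereas 1604 tested genes did so for KO against WT under FAC, 1368 under AC, 573 for the difference, 644 for FAC in KO and 447 for FAC in WT cells. The largest linear fold change of the family was 1.62 for Mrpl14 in KO FAC against WT FAC. The genes never called include Mrpl12 and Mrpl10, which form the stalk that recruits translation factors, Mrps12 at the decoding centre, and Mrps36. Mrpl12 had 83.1, 92.3 and 87.6 CPM in KO FAC, 86.3, 71.6 and 66.7 in KO AC, 85.4, 77.6 and 83.2 in WT FAC and 71.5, 83.2 and 82.2 CPM in WT AC libraries, and its groups overlapped in every comparison. Mrpl10 ranged from 68.7 to 80.4 CPM over all 12 libraries.

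**Figure D5:**
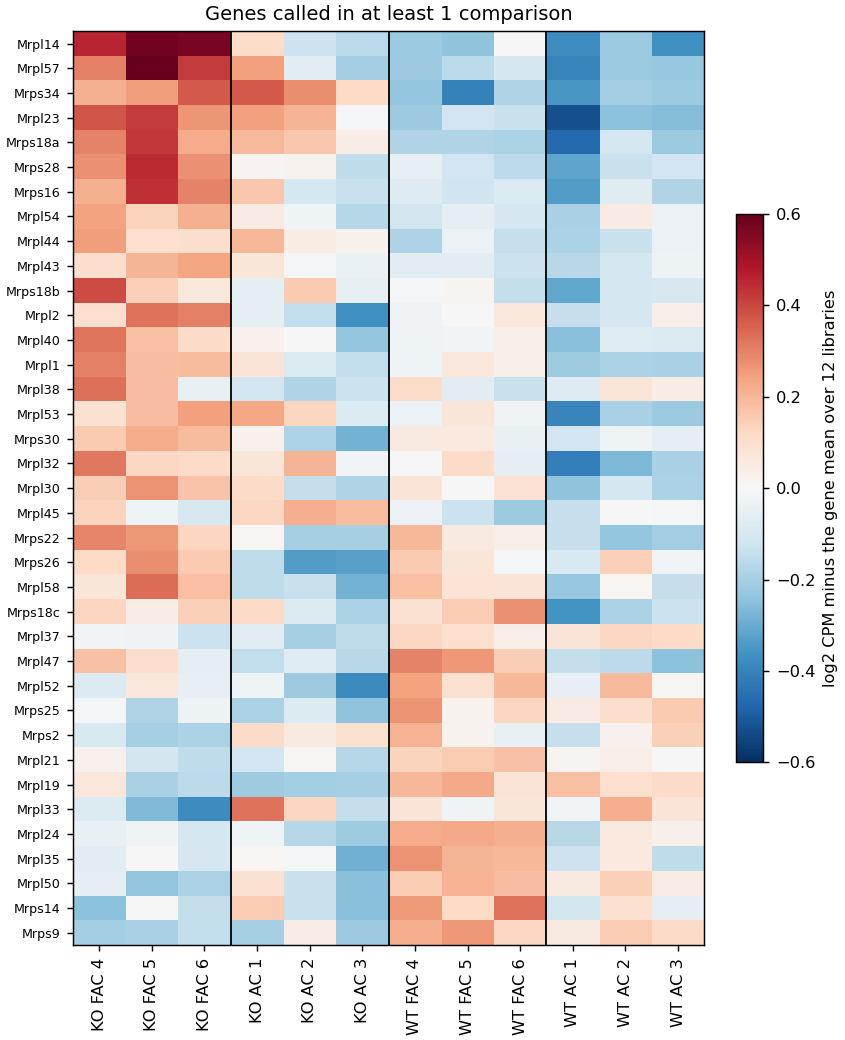
Log2 CPM of the 37 genes called in at least 1 comparison, as the difference from each gene's mean over 12 libraries, with libraries in columns and genes ordered by the fold change of KO FAC against WT FAC. Mrpl14 is at the top (0.69) and Mrps9 at the bottom (-0.39).

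The subunits were described side by side. Of the 26 small-subunit genes, 4 were higher and 4 lower in KO against WT under FAC, and of the 51 large-subunit genes 8 and 6. Under AC these numbers were 1 and 3 for the small and 6 and 3 for the large subunit. For FAC in KO cells they were 4 and 1, and 10 and 1, and for FAC in WT cells 2 small-subunit and 4 large-subunit genes were higher. In KO against WT, the small and large subunits had 30.8% and 27.5% called under FAC and 15.4% and 17.6% under AC. With FAC they had 19.2% and 21.6% in KO and 7.69% and 7.84% in WT cells. Shares of all tested genes were higher, at 49.5%, 42.9%, 29.6% and 17.2% in the same order. The genes of the family were also split by the class that the nomenclature gives them. The 31 mitoribosomal genes classed as mitochondria specific had 7 higher and 2 lower under FAC in KO against WT, with a median of 0.13. The 46 classed as having a bacterial relative had 5 and 8, with a median of -0.06. The shares called in the 2 classes were 29.0% and 28.3%, both below the 49.5% of all tested genes. The first class includes Mrps18a and Mrps18b, both called higher under FAC, so the name does not exclude a bacterial relative. For FAC in KO cells 8 genes classed as mitochondria specific were higher (median 0.17), and of the other class 6 were higher and 2 lower (median 0.09). These are 25.8% and 17.4% of the classes, against 29.6% of all tested genes. Whether these classes differ was not tested.

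Set beside other ribosomal and respiratory genes, the family had a smaller share of calls in the 4 comparisons of groups. With FAC in WT cells its share of 7.69% was close to the 8.75% of the oxidative phosphorylation subunits. Of the 76 tested cytosolic ribosomal protein genes, 28 were higher with FAC in WT cells and 42 in KO cells, with medians of 0.21 and 0.22. In KO against WT they were mostly lower, 43 of 76 under FAC and 39 of 76 under AC (medians -0.19 and -0.20), with 1 higher under each. With FAC, 36.8% of these genes were called in WT and 55.3% in KO cells, against 17.2% and 29.6% of all tested genes. In KO against WT 57.9% were called under FAC and 52.6% under AC, against 49.5% and 42.9%. Of the 80 nuclear oxidative phosphorylation subunits, whose complexes hold the products of the mitoribosome, 41 were higher and 1 lower in KO against WT under FAC (median 0.24) and 25 and 4 under AC (median 0.13). With FAC, 27 were higher and 1 lower in KO cells and 7 were higher in WT cells. The shares called were 52.5% in KO against WT under FAC, 36.25% under AC, and 35.0% and 8.75% with FAC in KO and WT cells. Those of all tested genes were 49.5%, 42.9%, 29.6% and 17.2%. These counts are descriptions of the lists, and the mitochondrially encoded genes themselves are not analysed here.

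Other genes of mitochondrial translation moved in smaller groups, described here for the part they share with the ribosomal proteins. Of 5 mitoribosomal proteins with other symbols, 2 were higher and 1 lower with FAC in KO cells: Aurkaip1 rose by 0.41, Dap3, a GTP-binding small-subunit protein, by 0.20, and Ptcd3, which sits at the mRNA entry, fell by 0.25. In WT cells Aurkaip1 rose by 0.27. In KO against WT, Ptcd3 fell by 0.80 under FAC and by 0.51 under AC. The largest decreases of the Mrpl and Mrps family were -0.39 and -0.34. Chchd1 rose by 0.25 and 0.27. Aurkaip1 rose by 0.28 under FAC. The Ptcd3 values in KO against WT held under every alternative (edgeR adjusted p = 1.32e-06 under FAC and 9.06e-05 under AC). The calls of Ptcd3, Dap3 and Chchd1 elsewhere, and of Aurkaip1 outside FAC in KO cells, were lost in at least 1 alternative.

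Of 13 translation factors, 1 was higher and 4 lower in KO against WT under FAC, and 5 were lower under AC. With FAC, 15.4% were called in KO and 7.69% in WT cells, against 29.6% and 17.2% of all tested genes. In KO against WT 38.5% were called under each treatment, below the 49.5% (FAC) and 42.9% (AC) of all tested genes. Mtif2, the initiation factor, fell by 0.92 under FAC and 0.46 under AC, the release factor Mtrf1l by 0.75 under FAC, and Guf1, an elongation factor, by 0.29 and 0.30. Gfm2, which splits the ribosome after termination, fell by 0.24 under AC, and with FAC in WT cells by 0.29. With FAC in KO cells Mtrf1, a release factor, rose by 0.46 and Mrrf, the recycling factor, by 0.24. The calls of Mtif2 and Mtrf1l held under every alternative.

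Of 27 assembly factors, 3 were higher and 6 lower in KO against WT under FAC and 3 and 1 under AC. With FAC, 0% were called in KO and 14.8% in WT cells, against 29.6% and 17.2% of all tested genes. In KO against WT 33.3% were called under FAC and 14.8% under AC, below the 49.5% and 42.9% of all tested genes. Mettl15 and Mrm3, which methylate the mitochondrial ribosomal RNAs, fell by 0.45 and 0.43 under FAC, and Mrm1, which does the same at another site, rose by 0.42. Under AC, Mtg1 fell by 0.35, and Trub2 and Rcc1l rose by 0.34 and 0.30. With FAC, 4 rose in WT cells, among them Fastkd2 (0.35), Mterf3 (0.34) and Malsu1 (0.30), the partner of Mrpl14. In KO cells edgeR and DESeq2 called none of the 27 with FAC, where the median was 0.0036 and 7 had an unadjusted p under 0.05 by edgeR. For the difference between genotypes edgeR called none, with 4 at an unadjusted p under 0.05, and DESeq2 called 1 lower. Of the 12275 tested genes, 5087 had an unadjusted p under 0.05 for FAC in KO cells and 2346 for the difference.

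Of 19 genes of mitochondrial transcription and RNA processing, 3 were higher and 5 lower in KO against WT under FAC and 3 and 4 under AC. With FAC, 26.3% were called in KO and 21.1% in WT cells, against 29.6% and 17.2% of all tested genes. In KO against WT 42.1% were called under FAC and 36.8% under AC, below the 49.5% and 42.9% of all tested genes. Lrpprc, which keeps mitochondrial mRNAs stable, fell by 0.81 and 0.43, the transcription factor Tfb2m by 0.79 and 0.68, and Twnk by 0.69 and 0.86. With FAC in KO cells Polg fell by 0.60, Lrpprc by 0.43 and Pnpt1 by 0.31, and in WT cells Trmt10c (0.60) and Tefm (0.35) rose and Elac2 fell by 0.41. Of 20 mitochondrial aminoacyl-tRNA synthetases and related enzymes, 1 was higher and 5 lower under FAC in KO against WT, and 4 were lower under AC. With FAC, 30.0% were called in KO and 5.0% in WT cells, against 29.6% and 17.2% of all tested genes. In KO against WT 30.0% were called under FAC, below the 49.5% of all tested genes. The 4 called under AC are also a smaller share than the 42.9% of all tested genes. Gatb, which makes glutaminyl-tRNA, fell by 0.81 and 0.65, Lars2 by 0.74 under FAC, and Rars2 by 0.32 under AC. Sars2, the neighbour of Mrps12, rose by 0.78 under FAC, where Mrps12 had a fold change of 0.15 ± 0.11 that was not called (edgeR adjusted p = 0.258). With FAC in KO cells Lars2 fell by 0.80, Vars2 by 0.46 and Mars2 by 0.45, and in WT cells Aars2 fell by 0.30. The level of Mars2 was low, at means of 3.23 CPM in KO FAC and 4.4 CPM in KO AC libraries.

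Of 13 proteases and chaperones, 3 were higher and 5 lower in KO against WT under FAC and 1 and 6 under AC. With FAC, 38.5% were called in KO and 15.4% in WT cells, against 29.6% and 17.2% of all tested genes. In KO against WT 61.5% were called under FAC and 53.8% under AC, against 49.5% and 42.9% of all tested genes. Afg3l2, a subunit of the m-AAA protease that cleaves Mrpl32, rose by 0.41 and 0.45, the chaperonin Hspd1 fell by 0.51 and 0.44, Yme1l1 fell by 0.49 under FAC and Trap1 by 0.35 under AC. With FAC in KO cells Atf5 (0.34), Hspa9 (0.29) and Clpp (0.27) rose, and in WT cells Atf5 rose by 0.27 and Trap1 fell by 0.24. Of 9 regulators of mitochondrial biogenesis, 3 were higher and 1 lower in KO against WT under FAC, and 3 were higher under AC. With FAC, 44.4% were called in KO and 0% in WT cells. In KO against WT 44.4% were called under FAC and 33.3% under AC, below all tested genes. Ppargc1b rose by 1.24 and Esrra by 0.36 under FAC, and Esrra (0.60), Nrf1 (0.42) and Yy1 (0.38) rose under AC. The level of Ppargc1b was low, at 2.33 ± 1.01 CPM in KO FAC libraries (SD, n = 3). Gabpa, one of the ETS factors, fell by 0.50 under FAC, and a link to the 12 promoters with the ETS letters was not tested. With FAC in KO cells Pprc1 fell by 0.51, Gabpa by 0.32 and Esrra by 0.29.

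Not all of these calls outside the family are firm. Of the named genes called for KO against WT under FAC, 13 of 21 were called under every alternative, namely Gabpa, Gatb, Hspd1, Lars2, Lrpprc, Mettl15, Mtif2, Mtrf1l, Ptcd3, Sars2, Tfb2m, Twnk and Yme1l1. Under AC 12 of 20 were, namely Afg3l2, Esrra, Gatb, Hspd1, Lrpprc, Mtif2, Nrf1, Ptcd3, Tfb2m, Trap1, Twnk and Yy1. For FAC in KO cells 7 of 17 were, namely Aurkaip1, Lars2, Lrpprc, Pnpt1, Polg, Pprc1 and Vars2, and for FAC in WT cells 2 of 11, Elac2 and Trmt10c. The others lost their call under at least 1 alternative.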

How the data were processed

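Per the labels' protocols, libraries of total RNA were prepared for a BGISEQ-500 sequencer, and the tools and builds named are RSEM, mm10 and GRCm38.p6, per the submitters' processing notes. Aligner, annotation release and strand setting are not given in the sources used here. For each gene the authors deposited unnormalized estimated counts in every library. The deposited FPKM values are scaled by transcript length and library total, and the deposited TPM values by length and then to 1000000 per library. The 12 columns of group means were not used.

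Estimated counts were rounded, scaled by TMM and tested on all 12 libraries in R 4.3.3 with edgeR 4.0.16. The filterByExpr minimum count of 10 removed 4453 genes and kept 12275. The 4 groups were fitted with a robust quasi-likelihood model and compared in 5 contrasts, with p adjusted by Benjamini-Hochberg over all tested genes and a call at an adjusted p under 0.05. The SE is the absolute log2 fold change divided by the square root of F. The biological coefficient of variation was 10.8%. CPM are TMM-scaled counts per 1000000. Identifiers of 16629 of 16728 genes matched RefSeq. Simulated data had 200 changed genes among the 12275, with the spread taken from its trend over expression level. There, 59.7% to 68.7% of genes changed 1.5-fold were recovered in the 4 comparisons of groups and 32.8% in the difference. Every real comparison had more called genes than its simulation, and most changes of the family were below 1.5-fold. These rates therefore do not describe the family's changes.

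The members and lists were chosen with earlier results of these data known. Named were, in each comparison, up to 6 called members higher and 6 lower by fold change, or the 5 with the smallest p where fewer than 5 were called, with the 6 highest and 4 lowest members by level, those of set roles, and up to 3 called genes of each pathway list. A result that this rule names for 1 pathway gene is not reported here, though the counts include it. Further called members are named to complete the counts. Ancestry follows the current mitoribosome nomenclature. Exon overlaps with other genes were found for 33 members in GENCODE M21, 28 of them with a gene on the opposite strand. Not all are named beside the results. Mrps18c and Mrpl33 overlap a gene on the same strand. Mrpl24, Mrps26, Mrpl58, Mrpl21, Mrpl44, Mrps18b and Mrps30 overlap one on the opposite strand. Their counts are less certain in the same way. RefSeq lists pseudogenes of Mrpl23, Mrpl27, Mrpl48 and Mrps36. Promoters were not found in the RefSeq table for Mrpl54, Mrps28, Mrpl38, Mrpl4, Mrps34, Mrps35, Mrpl13, Mrpl19 and Mrpl15.

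Alternatives were median-of-ratios and upper-quartile scaling, library totals, no filter on low counts, 5 FPKM or more in 3 libraries as the filter, limma 3.58.1 on log2(FPKM + 1), log2(FPKM + 0.1) and log2(TPM + 1), DESeq2 1.42.0, the compared groups alone, the replicate number as a block, each library left out, and KO AC 1 left out with KO FAC 4 or KO FAC 6. The block for the difference was added after the data were seen. Figures were drawn with matplotlib 3.10.9.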

Additional observations from a re-analysis of the deposited data

Results flagged for a closer look

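The FAC effect on Clpp, a subunit of the mitochondrial matrix protease, differed between genotypes by 0.42 on the log2 scale (KO minus WT, edgeR adjusted p = 0.0266). Clpp rose by 0.27 with FAC in KO cells (edgeR adjusted p = 0.00732), and its log2 fold change with FAC in WT cells was -0.16 (adjusted p = 0.104), with every FAC library below every AC library. The difference was called in 15 of 24 alternatives, with adjusted p between 0.00157 and 0.104, and it was lost with the replicate block (0.104) and without any 1 of WT FAC 4 (0.0655), WT FAC 5 (0.0685), WT FAC 6 (0.0674), WT AC 2 (0.0654), WT AC 3 (0.0843), KO FAC 5 (0.0696), KO AC 2 (0.0611) or KO AC 3 (0.0552).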

How the results depend on the processing

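Counts of the 78 genes called higher and lower moved by more than 1.5 times under these alternatives. With library totals they were 3 higher for FAC in WT, 8 and 5 for FAC in KO, 14 lower for KO against WT under AC, and 7 and 24 under FAC. On log2(TPM + 1) they were 2 and 2, 5 and 14, 23 lower, and 7 and 35. On log2(FPKM + 1) they were 9 and 6 for FAC in KO, 15 lower under AC, and 7 and 26 under FAC, and with a pseudocount of 0.1 they were 9 and 6, 14, and 7 and 27. Upper-quartile scaling gave 24 and 0 for FAC in KO, and the compared groups alone gave 14 higher for FAC in WT and 7 and 0 for FAC in KO. Without KO AC 1 and KO FAC 4 there were 31 higher for FAC in KO, 7 for the difference and 11 lower for KO against WT under AC. Without KO AC 1 and KO FAC 6 there were 24 and 0, and 2 for the difference. Leaving out 1 library gave 2 to 4 higher for FAC in WT, 7 to 28 higher and 0 to 2 lower for FAC in KO, 0 to 1 higher for the difference, 5 to 9 higher and 2 to 9 lower for KO against WT under AC, and 10 to 14 and 5 to 9 under FAC. The summed level changed direction for FAC in WT with FPKM (0.0612) and CPM (0.0871), for FAC in KO with FPKM (0.0501), CPM (0.122) and without KO AC 1 and KO FAC 4 (0.000825), and for KO against WT with CPM (0.0167 under AC and 0.0519 under FAC). The cause of these changes was not tested. Shares of all tested genes called under the same alternatives are not given, so changes of the family cannot be told apart from changes over all genes. With the replicate block 7 were higher and 3 lower under AC, and 11 and 7 under FAC. Deviations from the group means had correlations of -0.18 to 0.255 between libraries of the same number and of -0.339 to 0.288 between those of different number. With 3 libraries per group these values cannot exclude a shared preparation, and the labels do not say whether equal numbers are paired. No named gene changed sign in any alternative. Of the 2092 values of named genes under the alternatives, 1779 kept their side of the threshold, 307 lost the call and 6 gained it. DESeq2, median-of-ratios scaling, no filter and the FPKM filter kept every count within 1.5 times.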
